A study of Xenopus tropicalis with 24 samples.

Results

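The genes that make, take up, sense, store and export cholesterol were followed in the frog Xenopus tropicalis, in tadpole gut and tail, with and without thyroid hormone and with and without its receptors. Members were the gene rows whose name equalled 1 of 37 listed names, directly or after a final dot and digits had been removed. 36 names had a row among the 26531 genes counted, and the name nr1h3 (a sterol-responsive nuclear receptor) had none and was not analysed here. The 36 comprised 19 genes of synthesis, 5 of sterol sensing, 6 of uptake and 6 of export and storage. Animals were tadpoles at stage 54, which precedes the natural rise of thyroid hormone. The genotypes were wild type (WT) and TRDKO, in which both thyroid hormone receptor genes are knocked out. Each was kept at 25 °C for 18 h in 5 nM T3, thyroid hormone in its active form, or in none (control). Both organs were sampled in each case, which gave 8 groups of 3 RNA-seq libraries, 24 in all. The study asked how hormone-dependent expression differs when the receptors are absent, organ by organ.

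Cholesterol is built from acetyl-CoA through mevalonate, farnesyl diphosphate and squalene, and squalene is then folded into lanosterol and trimmed to cholesterol in the endoplasmic reticulum. When membranes are short of sterol, the SREBP transcription factors leave that membrane with their escort Scap and activate the genes of synthesis and of LDL uptake. Insig proteins hold them back when sterol is plentiful, and oxysterols turn on the exporters through liver X receptors. In vertebrate gut, enterocytes absorb sterol through Npc1l1, return it to the lumen through Abcg5 and Abcg8, and esterify it for lipoproteins through Soat2.

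Library totals ranged from 17577407 to 24699154 counted fragments. Levels are given as CPM, the count of a gene as a share of the library's total, scaled by trimmed means over all 24 libraries and given per library in the order of replicates 1, 2 and 3, and a group is given as mean ± SD. No difference beyond sampling noise was detected between replicates 1 and 3 of tail WT control, which were counted as 1 sample, so n = 2 in that group and n = 3 in the other groups. Log2 fold changes come from edgeR's quasi-likelihood test, fitted within an organ, or over both organs for comparisons between organs. They carry ± 1 standard error, taken as the size of the log2 fold change over the square root of the test's F statistic. This error can be too small where counts are few. The p-values were adjusted over all tested genes by the Benjamini-Hochberg method, and a gene is called at an adjusted p of at most 0.05. Nothing in the labels ties the replicates to different animals, and the p-values therefore reflect sample-to-sample spread alone, possibly technical. That spread was small (biological coefficient of variation 6.28% in intestine and 1.68% in tail), and a large share of all genes was called in every comparison, against which the counts of members are to be read. Replicate 3 of intestine TRDKO T3 differed from the other libraries of its group far more than replicates did elsewhere (mean chi-square per gene 22.8 and 27.6, against 2.15 or less in the other pairs), and results that turn on it are given with and without it. The receptor genes thra (3.74 to 14.8 CPM) and thrb (4.94 to 50.5 CPM) were counted in every TRDKO library, and since the labels do not give the lesions these counts do not check the genotype. The WT control groups also differed from all others in heat shock genes. The chaperone gene hspa1b stood at 420.2 to 438 CPM in intestine and 58.5 to 59.4 CPM in tail of WT control, against 0.787 CPM or less in each of the other 18 libraries. Every comparison that uses WT control below shares that difference, whose part in the sterol results was not tested.

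The sterol genes were mostly intestinal. In WT control, 31 of the 35 tested members were lower in tail than in intestine and 3 were higher, where 39.4% of all genes were lower and 45.0% higher (84.3% called). In TRDKO control 32 were lower and 2 higher, where 41.6% of all genes were lower and 43.6% higher (85.2% called). The median difference of the 19 synthesis genes was -2.71 on the log2 scale in WT control, against 0.08 over all genes. As a level per kilobase of exon, intestine WT control was led by ebp (the sterol isomerase) at 193 CPM per kb, dhcr7 (the reductase that ends one route of the pathway) at 192, npc2 (a lysosomal sterol carrier) at 185, cyp51a1 (the lanosterol demethylase) at 159 and abcg5 at 147. The ebp row rests on a gene model of 376 exon bases on an unplaced scaffold, so its level per length is uncertain. In tail WT control the highest members per kilobase were npc2 at 79.4 CPM per kb, mylip (a ubiquitin ligase that degrades the LDL receptor) at 24.3, srebf1 at 22.04 and idi1 (the isopentenyl diphosphate isomerase) at 20.4. The steps up to farnesyl and geranylgeranyl diphosphate (acat2, hmgcs1, mvk, pmvk, mvd, idi1, fdps and ggps1) differed between organs by -2.41 to 0.34 on the log2 scale in WT control, that of pmvk not passing (-0.11). The steps from squalene synthase to the end (fdft1, sqle, lss, cyp51a1, tm7sf2, msmo1, nsdhl, hsd17b7, ebp, sc5d and dhcr7) differed by -4.73 to -1.13, and 10 of these 11 lay below the whole range of the earlier steps. Of the synthesis genes, ggps1, which leads to geranylgeranyl groups rather than sterols, was the 1 that was higher in tail (0.34 ± 0.09, edgeR adjusted p = 7.30e-04), and ebp had the largest deficit in WT control (-4.73 ± 0.11, adjusted p = 7.50e-24). In TRDKO control the largest deficit was that of msmo1 (-4.66 ± 0.06, adjusted p = 4.00e-30). The other members above intestine were mylip (1.03 ± 0.06 in WT and 1.64 ± 0.06 in TRDKO control) and the cholesterol exporter abca1 (0.65 ± 0.12 and 0.62 ± 0.11). Among sensing genes the largest deficit was that of insig1 (-2.68 ± 0.05 in WT control, -2.31 ± 0.04 in TRDKO control). In WT control the absorptive gene npc1l1 was at least 2257-fold lower in tail and abcg5 at least 5355-fold lower (exact 95% lower limits). With the 0 counts of the tail group set to a floor of 3 counts, the folds were 2776 and 6586. In TRDKO control the largest deficit with a fitted value was that of soat2 (-8.70 ± 0.08, adjusted p = 2.04e-33). It rests on 36 counts over the tail group, and its standard error understates the counting error. In bulk tissue, fewer cells of a type and less RNA per cell cannot be told apart. The 11 enterocyte marker genes found in the table summed to 22880.0 to 24237 CPM in intestine and 13.9 to 15.4 CPM in tail of WT control.

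**Figure D1:**
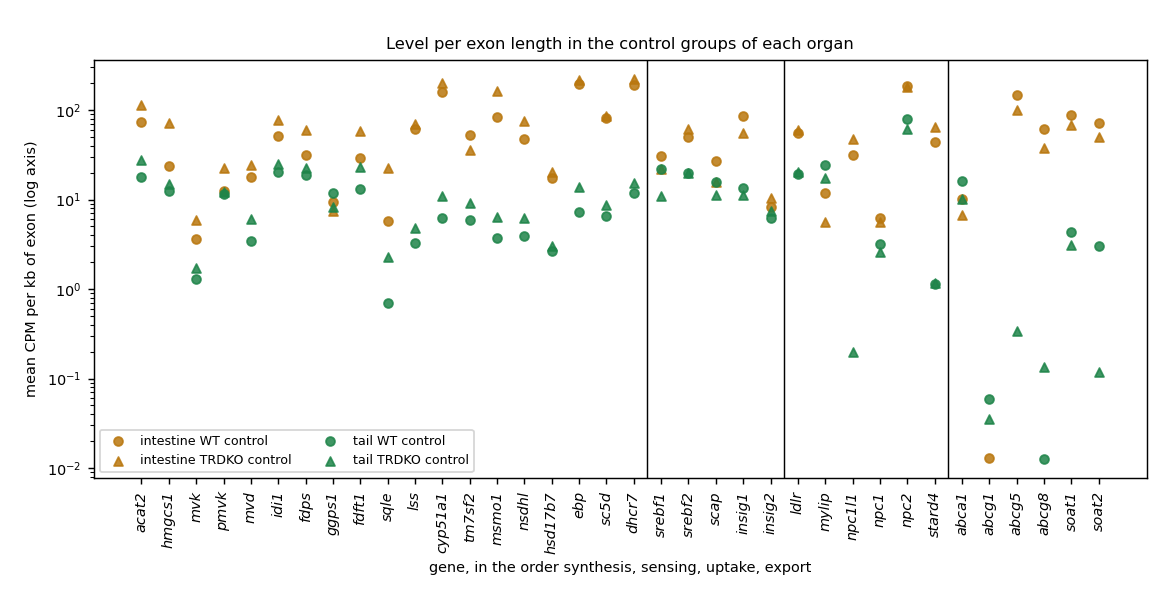
Mean level of the members per kilobase of exon (CPM per kb, log axis) in the control groups of intestine and tail, in the order synthesis, sensing, uptake and export, with circles for WT and triangles for TRDKO and groups at 0 left out. Most tail points lie below the intestine points, with ggps1, mylip and abca1 above them in WT control, and abcg1 too on 10 counts in tail and 2 in intestine.

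T3 lowered most of the synthesis pathway in WT intestine. Of the 19 synthesis genes, 16 fell, 0 rose and 3 did not pass, where 30.3% of all genes fell and 30.3% rose, and over all 35 tested members 24 fell and 8 rose (60.5% of all genes called). The synthesis median was -0.66 against 0.01 over all genes. The summed level of the 19 genes went from 2229 ± 19.99 CPM in WT control to 1472 ± 18.1 CPM in WT T3. WT T3 was the lowest of the 4 intestine groups in 16 of the 19 genes, against 26.1% of all tested genes. All 16 calls were kept in every alternative fit, left-out libraries included. The largest fall was that of lss (lanosterol synthase, which closes the sterol rings; chromosome 9, 61031577 to 61054245, minus strand in the XENTR_10.0 annotation of the files). It stood at 176, 165 and 164 CPM in WT control and 49.1, 50.96 and 47.5 CPM in WT T3, groups that did not overlap, and fell by 1.82 ± 0.05 on the log2 scale (edgeR adjusted p = 1.53e-12). Its neighbours in the pathway fell too, namely squalene synthase fdft1 (-1.11 ± 0.05), squalene epoxidase sqle (-1.23 ± 0.21) and cyp51a1 (-1.25 ± 0.06). So did the sterol isomerase ebp (-1.33 ± 0.08), the desaturase sc5d (-1.06 ± 0.04) and the decarboxylase mvd (-1.08 ± 0.05). Smaller falls were seen for the sterol reductase tm7sf2 (-0.87 ± 0.04), the thiolase acat2 (-0.74 ± 0.07), the kinases pmvk (-0.66 ± 0.08) and mvk (-0.53 ± 0.09), the dehydrogenases hsd17b7 (-0.57 ± 0.04) and nsdhl (-0.30 ± 0.05), the methyl oxidase msmo1 (-0.56 ± 0.05), idi1 (-0.52 ± 0.08) and ggps1 (-0.45 ± 0.11). The 3 that did not pass were hmgcs1, the synthase that forms HMG-CoA (-0.02 ± 0.05), farnesyl diphosphate synthase fdps (-0.14 ± 0.09) and dhcr7 (0.10 ± 0.07). Heat shock genes summed to 9216 to 9632 CPM in WT control and 4486 to 4798 CPM in WT T3, and exocrine pancreas markers to 56.6 to 58.4 and 1141 to 1159.5 CPM, while enterocyte markers stood at 22880.0 to 24237 and 23241 to 24765 CPM. Single enterocyte genes moved apart, with vil1 at 2846 to 3051 CPM in WT control and 1708.5 to 1782 CPM in WT T3. In the same groups slc15a1 stood at 2661.5 to 2793 and 4290 to 4658 CPM, while fabp2 overlapped. The part of these shifts in the fall of synthesis genes was not tested.

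**Figure D2:**
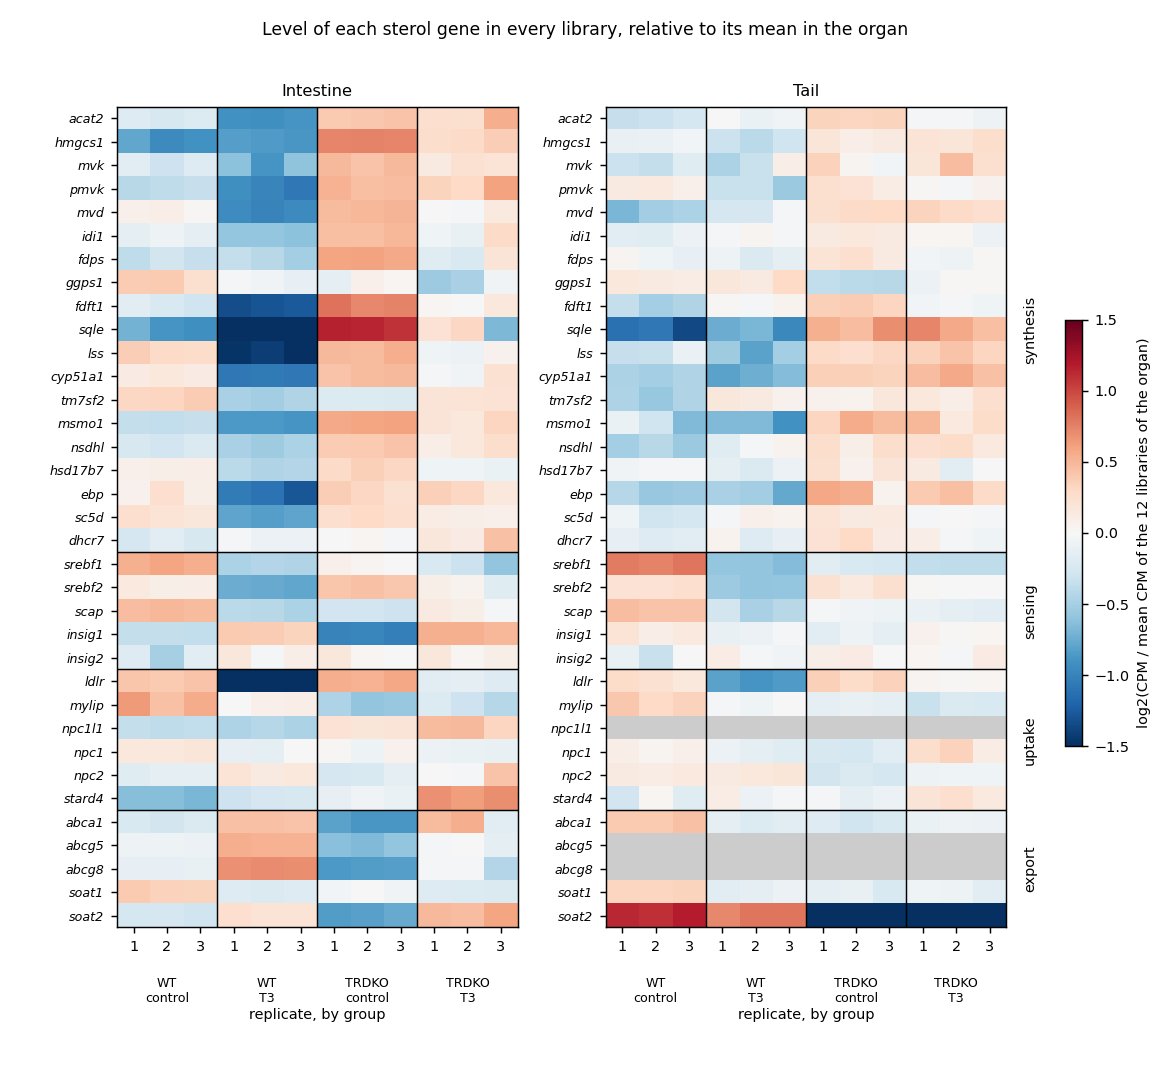
Level of each tested member in every library as log2 of its CPM over its mean in the 12 libraries of the organ, with rows by role and columns by group and replicate, red above and blue below the mean, colours saturating at 1.5 either way, and rows with a library at 0 in grey. In intestine the synthesis rows are mostly blue in WT T3 and mostly red in TRDKO control, and intestine TRDKO T3 replicate 3 departs from its group in sqle and abca1.

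Without hormone, TRDKO intestine carried more synthesis transcripts than WT intestine. In TRDKO control, 15 of the 19 synthesis genes were higher than in WT control and 2 were lower (29.1% of all genes higher, 28.7% lower), and the synthesis median was 0.55 against 0.01. The summed level was 3089 ± 15.7 CPM, and TRDKO control was the highest intestine group in 16 of the 19 genes, against 24.2% of all tested genes. Over all members 20 were higher and 12 lower, where 57.8% of all genes were called. With upper-quartile scaling, 61.4% of all called genes were higher in TRDKO, against 50.3% with trimmed means. The largest excess was in sqle, an oxygen-using control point of the pathway (chromosome 6, 143392404 to 143401523, minus strand), which read 21.3, 18.9 and 18.5 CPM in WT control and 77.4, 77.2 and 74.2 CPM in TRDKO control (1.92 ± 0.17, edgeR adjusted p = 5.19e-07). The next was hmgcs1 (chromosome 1, 194959647 to 194972420, plus strand), which read 74.9, 66.4 and 68.6 CPM (WT control), 72.2, 71.3 and 70.1 (WT T3), 213, 215 and 214 (TRDKO control) and 154, 156 and 166 (TRDKO T3). The WT groups of hmgcs1 overlapped each other, and both TRDKO groups lay above them without overlap (1.57 ± 0.05 without and 1.17 ± 0.05 with T3, adjusted p = 3.39e-12 and 2.00e-10). The members lower in TRDKO control were tm7sf2 (-0.59 ± 0.04, adjusted p = 1.71e-08) and ggps1 (-0.40 ± 0.11). 13 of the 15 calls of an excess held in every fit that left out 1 library. The call of lss was lost without TRDKO control replicate 3 or WT control replicates 2 or 3, 1 at a time (adjusted p = 0.0670 to 0.126), and that of dhcr7 without TRDKO control replicates 1 or 2 or 3 or WT control replicates 1 or 3, 1 at a time (adjusted p = 0.0733 to 0.165). This comparison and that of T3 in WT share the WT control libraries. Beside it, exocrine pancreas markers summed to 56.6 to 58.4 CPM in WT control and 6861 to 7329.9 CPM in TRDKO control, and heat shock genes to 9216 to 9632 and 4023 to 4349 CPM, and their part in the difference was not tested.

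T3 lowered synthesis genes in TRDKO intestine as well, by less. 14 of the 19 fell and 2 rose, where 20.3% of all genes fell and 20.6% rose, with a median of -0.35 against 0.00. Over all members 18 fell and 12 rose (40.9% of all genes called). The largest fall was in sqle, at 77.4, 77.2 and 74.2 CPM in TRDKO control and 40.5, 43.2 and 21.8 CPM in TRDKO T3. All T3 libraries lay below control, replicate 3 the furthest. The difference was -1.09 ± 0.16 with that library (edgeR adjusted p = 1.24e-04) and -0.84 without it. The members that rose were tm7sf2, from 113, 113 and 112 to 149, 149 and 151 CPM with no overlap (0.42 ± 0.04, adjusted p = 1.18e-06), and dhcr7 (0.26 ± 0.07, or 0.17 without replicate 3). Without replicate 3, 16 synthesis genes fell, acat2 (-0.14) and pmvk (-0.14) being added, and 2 rose. More of all genes were called in that fit too, 9004 against 6343 with all libraries. The call of mvk was lost without TRDKO control replicate 1 or TRDKO T3 replicate 1, 1 at a time (adjusted p = 0.0519 to 0.0577), and that of ggps1 without TRDKO control replicates 2 or 3 or TRDKO T3 replicates 1 or 2, 1 at a time (adjusted p = 0.0890 to 0.139). Under T3, 18 of the 19 synthesis genes were higher in TRDKO than in WT and 0 were lower (25.1% of all genes higher, 24.3% lower, 49.4% called), with a median of 1.02 against 0.01. Over all members 25 were higher and 3 lower. The exception was ggps1, at -0.29 ± 0.12 (adjusted p = 0.0580), which without replicate 3 was called lower at -0.44 (adjusted p = 3.38e-04). The difference was largest for sqle (2.05 ± 0.20, adjusted p = 1.50e-06). Tested as an interaction, the T3 effect on 11 synthesis genes was more positive in TRDKO than in WT and on 2 more negative, and over all members 23 were more positive and 2 more negative (27.2% and 25.1% of all genes, 52.3% called). The largest positive interaction was that of ebp (1.31 ± 0.11, adjusted p = 1.95e-07) and the largest negative that of fdps (-0.50 ± 0.12, adjusted p = 0.00320). The other negative was hmgcs1 (-0.40 ± 0.07), whose T3 effect was -0.42 ± 0.05 in TRDKO. The interaction of sqle did not pass (0.14 ± 0.26) unless replicate 3 was left out (0.39, adjusted p = 7.58e-05). The interaction of hsd17b7 was lost without TRDKO control replicate 1 (adjusted p = 0.0533). Hepatocyte markers summed to 809.9 to 955 CPM in intestine TRDKO T3 and 69.1 to 71.6 CPM in TRDKO control, with 19 of 19 genes detected in both. Most of that sum was tf (33.4 to 34.9 CPM in control and 702 to 820.5 CPM with T3) and hpx (0.588 to 0.890 and 78.9 to 96.6 CPM), while alb went from 2.37 to 2.89 CPM in control to 3.81 to 6.80 CPM with T3. In the same groups heat shock genes summed to 3792 to 4609.8 CPM with T3 and 4023 to 4349 CPM in control, and exocrine pancreas markers to 269 to 342 and 6861 to 7329.9 CPM. Their part in the TRDKO differences was not tested.

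Among the sensing genes of intestine, the SREBP factors and their escort fell with T3 in WT while the Insig genes rose. 3 of the 5 fell and 2 rose, where 30.3% of all genes fell and 30.3% rose. The gene srebf1, whose product drives mainly fatty acid genes (chromosome 9, 15371966 to 15393817, plus strand), read 156, 162 and 158 CPM (WT control), 77.8, 79.6 and 79.2 (WT T3), 114, 112 and 109 (TRDKO control) and 92.2, 86.7 and 71.5 (TRDKO T3). WT control was highest without overlap, and the lowest library of TRDKO T3, replicate 3, lay below all of WT T3. It fell by 1.06 ± 0.07 in WT (edgeR adjusted p = 1.78e-08) and by 0.41 ± 0.07 in TRDKO (adjusted p = 3.53e-04). The gene srebf2, the main factor of cholesterol genes (chromosome 4, 120125694 to 120164612, plus strand), read 266, 256 and 256 CPM (WT control), 143, 142 and 139 (WT T3), 319, 324 and 318 (TRDKO control) and 256, 249 and 211 (TRDKO T3). TRDKO control was highest and WT T3 lowest without overlap, as in most synthesis genes, and WT control overlapped TRDKO T3 in between. It fell by 0.92 ± 0.06 in WT (adjusted p = 1.90e-08) and by 0.42 ± 0.06 in TRDKO (adjusted p = 8.33e-05), and was higher in TRDKO by 0.26 ± 0.06 without and 0.77 ± 0.06 with T3. The escort gene scap went from 142, 145 and 143 CPM to 77.999, 77.05 and 73.9 CPM in WT and from 84.3, 84.002 and 83.3 to 113, 109 and 101 CPM in TRDKO. It fell in WT (-0.96 ± 0.05) and rose in TRDKO (0.37 ± 0.05), with an interaction of 1.33 ± 0.06 (adjusted p = 9.27e-10), and it had the largest deficit of the sensing genes in TRDKO control (-0.82 ± 0.05, adjusted p = 2.49e-09).

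The retention gene insig1 (chromosome 6, 16635760 to 16649463, plus strand), itself a target of the SREBPs in mammals, rose with T3 in intestine of both genotypes where most synthesis genes fell. It read 332, 332 and 331 CPM (WT control), 558, 555 and 536 (WT T3), 213, 216 and 209.97 (TRDKO control) and 618, 615 and 603 (TRDKO T3), 4 groups without overlap. It rose by 0.68 ± 0.04 in WT (edgeR adjusted p = 6.36e-09) and by 1.53 ± 0.04 in TRDKO (adjusted p = 1.58e-12), and the interaction was 0.85 ± 0.06 (adjusted p = 3.67e-08). In TRDKO it was lower than in WT without T3 (-0.68 ± 0.04) and higher with T3 (0.17 ± 0.04). Its relative insig2 rose in WT (0.31 ± 0.09), did not pass in TRDKO (0.04 ± 0.09) and was higher in TRDKO control by 0.30 ± 0.09 (adjusted p = 0.00887). That last call was lost without TRDKO control replicate 1 or WT control replicate 2, 1 at a time (adjusted p = 0.0506 to 0.0522). Over the 5 sensing genes, 2 rose and 2 fell with T3 in TRDKO (20.6% and 20.3% of all genes), and 2 were higher and 3 lower in TRDKO control (29.1% and 28.7%). The interactions of 4 were positive and of 0 negative (27.2% and 25.1% of all genes), insig2 being the exception (-0.27 ± 0.12, or -0.25 with adjusted p = 0.0157 without TRDKO T3 replicate 3).

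The uptake genes of intestine did not move together with T3. The LDL receptor gene ldlr (chromosome 3, 138972462 to 138986944, plus strand), an SREBP target that clears lipoproteins from blood, had the largest T3 fall of all members in WT intestine. It read 229, 226 and 230.3 CPM (WT control), 54.9, 54.03 and 53.8 (WT T3), 250.3, 247 and 256 (TRDKO control) and 152, 156 and 150.4 (TRDKO T3). WT T3 lay far below the other groups, and TRDKO T3 lay between them without overlap. It fell by 2.12 ± 0.04 in WT (edgeR adjusted p = 1.72e-14), a level 0.230 times that of control, and fell by 0.71 ± 0.04 in TRDKO (adjusted p = 2.36e-09), and the interaction was 1.42 ± 0.05 (adjusted p = 5.15e-11). Under T3 ldlr was higher in TRDKO by 1.51 ± 0.04, and in control by 0.09 ± 0.04 (adjusted p = 0.0471), a call lost in each fit that left out 1 of the 6 control libraries (adjusted p = 0.0703 to 0.159) and with most other settings. The ligase gene mylip (chromosome 6, 92587203 to 92606309, minus strand), a liver X receptor target in mammals, read 32.6, 28.5 and 30.8 CPM (WT control), 21.1, 22.2 and 22.6 (WT T3), 15.3, 13.97 and 14.2 (TRDKO control) and 18.3, 16.9 and 15.6 (TRDKO T3). It was thus highest in WT control and fell there with T3 (-0.53 ± 0.07, adjusted p = 1.69e-05). In TRDKO it rose (0.24 ± 0.08, adjusted p = 0.0237), a call lost without TRDKO control replicates 2 or 3 or TRDKO T3 replicate 1, 1 at a time (adjusted p = 0.0746 to 0.108). Its difference between TRDKO and WT was -1.13 ± 0.07 without and -0.36 ± 0.07 with T3.

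The absorptive transporter gene npc1l1 (chromosome 3, 126465192 to 126484980, plus strand) read 136, 134 and 134 CPM (WT control), 126, 129.7 and 125 (WT T3), 202, 198 and 199.6 (TRDKO control) and 242, 244 and 218 (TRDKO T3). Both TRDKO groups lay above both WT groups without overlap (0.52 ± 0.05 without and 0.90 ± 0.05 with T3, edgeR adjusted p = 3.70e-07 and 2.07e-09). T3 raised it in TRDKO (0.24 ± 0.05) and lowered it slightly in WT (-0.13 ± 0.05, adjusted p = 0.0242), the latter call being lost without WT control replicates 1 or 2 or WT T3 replicates 1 or 3, 1 at a time (adjusted p = 0.0627 to 0.0932) and with upper-quartile scaling (adjusted p = 0.206). The gene stard4 (chromosome 1, 173331241 to 173343523, plus strand), a soluble sterol carrier and SREBP target in mammals, read 122, 122 and 118 CPM (WT control), 153, 159 and 161 (WT T3), 174, 183 and 178 (TRDKO control) and 306, 293 and 308 (TRDKO T3), rising step by step with no overlap. It rose with T3 by 0.34 ± 0.04 in WT (adjusted p = 1.13e-05) and by 0.77 ± 0.04 in TRDKO (adjusted p = 3.68e-09), unlike ldlr. Of the genes of lysosomal sterol release, npc1 fell in WT (-0.31 ± 0.06) and was -0.09 ± 0.06 in TRDKO, which did not pass. Its partner npc2 rose in both (0.28 ± 0.09 and 0.36 ± 0.09), the WT call being lost without WT control replicates 1 or 3, 1 at a time (adjusted p = 0.0527 to 0.0599) and the TRDKO value being 0.21 without TRDKO T3 replicate 3. In all, 4 of 6 uptake genes fell and 2 rose with T3 in WT (30.3% and 30.3% of all genes), and 4 rose and 1 fell in TRDKO (20.6% and 20.3%). The interaction of 5 of the 6 was positive and of 0 negative (27.2% and 25.1% of all genes), that of npc1 (0.21 ± 0.08) being lost without TRDKO control replicates 1 or 2 or TRDKO T3 replicates 1 or 2 or WT control replicates 1 or 2 or 3 or WT T3 replicates 1 or 2, 1 at a time (adjusted p = 0.0508 to 0.107).

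**Figure D3:**
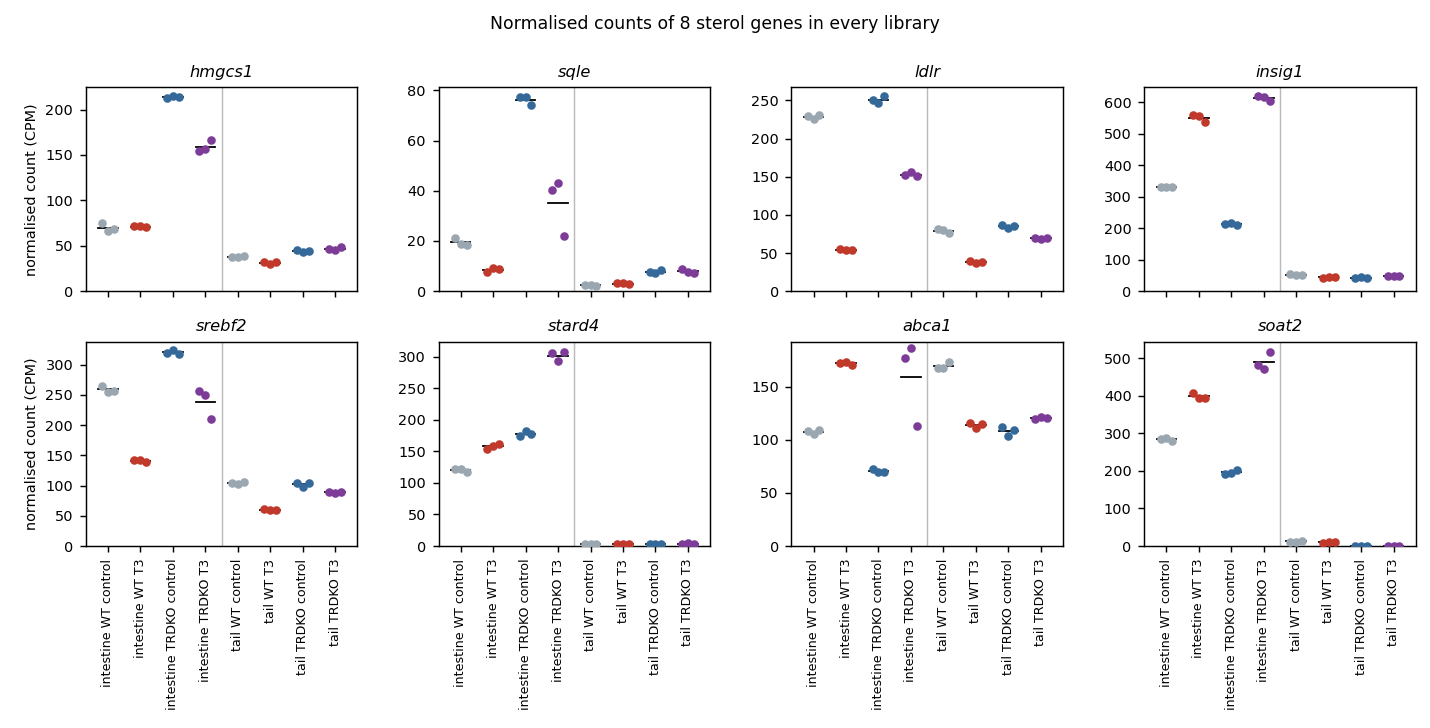
Normalised counts (CPM) of 8 members in each of the 24 libraries, with points for libraries, black lines for the mean of a group's libraries, and intestine left of the grey line in each panel. In intestine ldlr and srebf2 are lowest in WT T3, insig1 and soat2 are lowest in TRDKO control, and stard4 and soat2 are near the axis in tail.

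Export and storage genes rose with T3 in intestine of both genotypes, except soat1. In WT 4 of the 5 tested rose and 1 fell, and in TRDKO again 4 rose and 1 fell, where 30.3% and 20.6% of all genes rose. All 5 were lower in TRDKO control than in WT control, where 28.7% of all genes were lower. These 10 calls of T3 and 5 calls of genotype were kept in every fit that left out 1 library. The partners abcg5 (chromosome 5, 18443213 to 18461058, minus strand) and abcg8 (chromosome 5, 18461115 to 18478722, plus strand), which return sterols to the gut lumen as a pair, lie head to head with 56 bases between their annotated ends. The abcg5 values were 320.3, 321 and 318 CPM (WT control), 493, 486 and 487 (WT T3), 219, 214 and 225 (TRDKO control) and 334, 339 and 306 (TRDKO T3), and the abcg8 values were 176, 177 and 178 CPM (WT control), 309, 314 and 312 (WT T3), 106, 107 and 108 (TRDKO control) and 189, 189.8 and 142 (TRDKO T3). Both were highest in WT T3 and lowest in TRDKO control without overlap. With T3, abcg5 rose by 0.56 ± 0.05 in WT and 0.58 ± 0.05 in TRDKO (edgeR adjusted p = 2.01e-07 and 3.04e-07), and abcg8 by 0.77 ± 0.08 and 0.71 ± 0.08 (adjusted p = 2.39e-06 and 1.21e-05). Neither interaction passed (0.02 ± 0.07, adjusted p = 0.855, and -0.06 ± 0.12, adjusted p = 0.688), though that of abcg8 was 0.08 (adjusted p = 0.0472) without TRDKO T3 replicate 3. Of the export genes, abcg8 had the largest deficit in TRDKO, -0.77 ± 0.08 without and -0.83 ± 0.08 with T3.

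The exporter gene abca1 (chromosome 1, 120018972 to 120094559, minus strand), which loads cholesterol onto apolipoproteins, read 109, 105 and 109 CPM (WT control), 172, 173 and 171 (WT T3), 72.95, 69.6 and 69.3 (TRDKO control) and 177, 186 and 113 (TRDKO T3). It rose by 0.63 ± 0.13 in WT (edgeR adjusted p = 8.57e-04) and by 1.18 ± 0.13 in TRDKO (adjusted p = 7.87e-06). Replicate 3 of TRDKO T3 lay well below the other libraries of its group. Under T3 the genotypes differed by -0.10 ± 0.13 (adjusted p = 0.542), and by 0.09 (adjusted p = 0.00132) without that library. The interaction was 0.55 ± 0.18 (adjusted p = 0.0211), a call lost without TRDKO T3 replicate 1 or WT T3 replicate 1, 1 at a time (adjusted p = 0.0509 to 0.0597). The esterifying enzyme gene soat2 (chromosome 2, 147473489 to 147499731, minus strand) read 285, 287 and 279 CPM (WT control), 408, 394 and 395 (WT T3), 191, 194 and 202 (TRDKO control) and 481, 471 and 517 (TRDKO T3), 4 groups without overlap. It rose by 0.44 ± 0.05 in WT and 1.33 ± 0.05 in TRDKO (adjusted p = 2.33e-06 and 3.87e-11), with an interaction of 0.89 ± 0.07 (adjusted p = 9.83e-08), and under T3 it was higher in TRDKO by 0.31 ± 0.05. The other esterifying enzyme gene, soat1, the form of most cell types, fell in both genotypes (-0.60 ± 0.04, adjusted p = 1.41e-08, and -0.16 ± 0.04, adjusted p = 0.00424). The exporter gene abcg1 was at 2, 1, 0 and 1 counts over the libraries of the 4 intestine groups and at 10, 4, 8 and 7 in tail, below the filter, so no test was made.

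**Figure D4:**
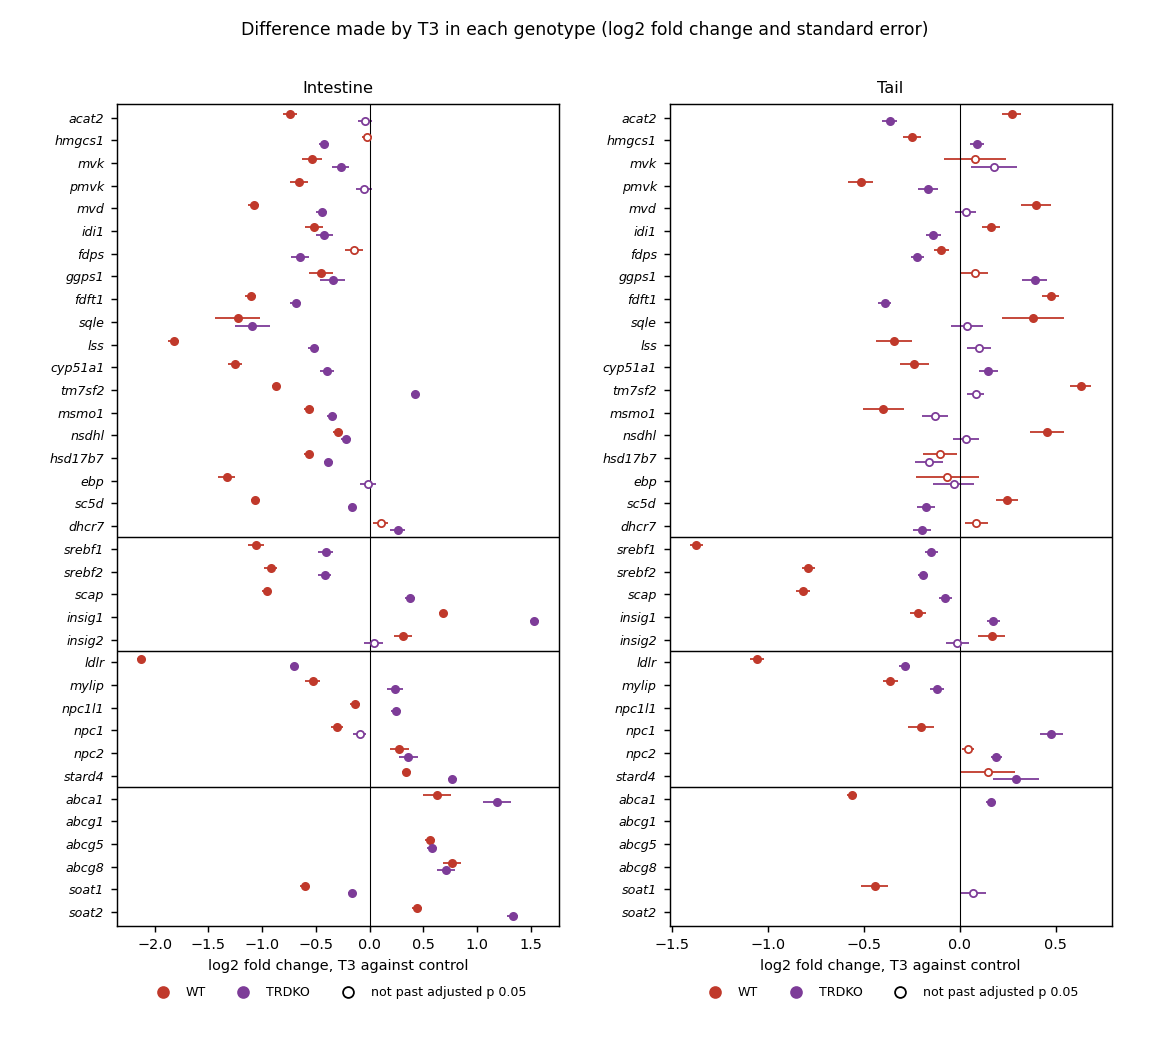
Fitted difference between T3 and control (log2 fold change, bars 1 standard error) for each member in WT (red) and TRDKO (purple), in intestine and tail, with open points for differences that did not pass. Most synthesis points of intestine lie left of 0, further in WT than in TRDKO, and abcg1 in both organs and npc1l1, abcg5, abcg8 and soat2 in tail are not drawn for their low counts.

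In tail the synthesis genes had no common direction with T3. In WT tail 8 of the 19 rose and 6 fell, where 35.4% of all genes rose and 33.5% fell, shares near those of the list, and over all members 9 rose and 16 fell (68.9% of all genes called). The largest rise was that of tm7sf2, from 19.4, 17.9 and 19.5 CPM in control to 30.1, 29.2 and 27.97 CPM with T3 (0.63 ± 0.06, edgeR adjusted p = 3.83e-17). The largest fall was that of pmvk, from 21.7, 21.95 and 20.9 to 15.8, 15.7 and 13.5 CPM (-0.52 ± 0.06, adjusted p = 1.68e-11). Also raised were fdft1 (0.47 ± 0.04), nsdhl (0.45 ± 0.09), mvd (0.40 ± 0.08), acat2 (0.27 ± 0.05), sc5d (0.25 ± 0.06) and idi1 (0.16 ± 0.05), and also lowered were lss (-0.34 ± 0.09), hmgcs1 (-0.25 ± 0.05) and cyp51a1 (-0.24 ± 0.08). The levels of sqle were low, at 2.41, 2.50 and 2.06 CPM in WT control and 3.13, 3.27 and 2.68 CPM in WT T3, and its rise (0.38 ± 0.16, adjusted p = 0.0315) was lost without WT control replicate 3 or WT T3 replicates 1 or 2, 1 at a time (adjusted p = 0.0759 to 0.118). The falls of fdps (-0.10 ± 0.04) and msmo1 (-0.40 ± 0.11) were lost, for fdps without WT control replicate 1 or WT T3 replicates 2 or 3, 1 at a time (adjusted p = 0.0602 to 0.339) and for msmo1 without WT control replicate 1 (adjusted p = 0.0525). Under every setting other than leaving out a library, 6 of the 8 rises and 5 of the 6 falls were kept. In WT the T3 effect on 14 synthesis genes was more positive in tail than in intestine and on 1 more negative (17.8% and 21.7% of all genes, and 21 of all members called against 39.5% of all genes). The extremes were sqle (1.55 ± 0.41, adjusted p = 0.00526) and hmgcs1 (-0.28 ± 0.07, adjusted p = 0.00230).

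In TRDKO tail 3 synthesis genes rose with T3, 7 fell and 9 did not pass (26.7% of all genes rose and 26.2% fell). Over all members 8 rose and 16 fell (52.9% of all genes called), against 5 and 18 with upper-quartile scaling and 3 and 15 with all 24 libraries in one fit. The 16 falls include those of npc1l1, abcg5, abcg8 and soat2, which had few counts in TRDKO tail. Enterocyte markers summed to 126 to 129.7 CPM in tail TRDKO control and 34.4 to 35.6 CPM in TRDKO T3, and their part in the falls was not tested. The largest rise was that of ggps1, from 9.84, 9.55 and 9.50 to 11.9, 12.9 and 12.9 CPM (0.39 ± 0.07, edgeR adjusted p = 6.78e-07), and the largest fall that of fdft1, from 63.6, 64.1 and 62.01 to 48.1, 48.3 and 47.3 CPM (-0.39 ± 0.03, adjusted p = 3.09e-18). The rise of hmgcs1, from 45.3, 42.8 and 44.1 to 46.3, 45.4 and 48.2 CPM (0.09 ± 0.04, adjusted p = 0.0316), was lost without TRDKO control replicates 2 or 3 or TRDKO T3 replicate 3, 1 at a time (adjusted p = 0.0582 to 0.166). That of cyp51a1 (0.15 ± 0.05) was lost without TRDKO T3 replicate 2 (adjusted p = 0.0844). Under every setting other than leaving out a library, 1 of the 3 synthesis rises and 6 of the 7 synthesis falls were kept. Of those that did not pass, some were called in fits that left out 1 library, namely tm7sf2 without TRDKO control replicate 3 or TRDKO T3 replicate 2, 1 at a time (adjusted p = 0.0401 to 0.0473), msmo1 without TRDKO control replicate 1 or TRDKO T3 replicate 1, 1 at a time (adjusted p = 0.00717 to 0.0259) and hsd17b7 without TRDKO control replicate 2 or TRDKO T3 replicate 1, 1 at a time (adjusted p = 0.0113 to 0.0224). In WT tail hmgcs1 had read 37.1, 37.2 and 38.9 CPM in control and 32.01, 30.1 and 32.5 CPM with T3. The interaction called 5 synthesis genes as more positive and 9 as more negative in TRDKO, and 15 and 12 of all members (32.2% and 33.4% of all genes, 65.6% called), led by lss (0.44 ± 0.11, adjusted p = 4.07e-04) and fdft1 (-0.86 ± 0.05, adjusted p = 4.87e-26). With upper-quartile scaling the median interaction over all tail genes moved from -0.03 to -0.14. In TRDKO the T3 effect on 12 synthesis genes was more positive in tail than in intestine and on 3 more negative (17.4% and 14.2% of all genes). Of the 12 positive calls, 8 were kept in every fit that left out 1 library, and 8 under every other setting. Of all members 17 were more positive and 12 more negative (31.6% of all genes called), against 10 and 12 with RLE scaling. The members tested for both interactions include npc1l1, abcg5, abcg8 and soat2, with 1, 8, 3 and 5 counts in tail TRDKO T3. The synthesis genes were led by sqle (1.11 ± 0.25) and dhcr7 (-0.46 ± 0.10). Both values use intestine TRDKO T3 replicate 3, without which the intestine T3 effects of sqle and dhcr7 were smaller in size, as given above.

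Synthesis genes were higher in TRDKO tail than in WT tail, as they were in intestine. In tail TRDKO control 17 of the 19 were higher than in WT control and 1 was lower, where 36.4% of all genes were higher and 36.6% lower, with a median of 0.55 against 0.01 over all genes. Over all members 22 were higher and 10 lower (73.1% of all genes called). The higher ones include npc1l1, abcg5 and abcg8 and the lower ones soat2, each with few counts in TRDKO tail. The summed level of the 19 genes was 346 ± 6.50 CPM in WT control, 369 ± 6.31 in WT T3, 473 ± 5.14 in TRDKO control and 435 ± 3.89 in TRDKO T3. The largest excess was again in sqle, which read 7.61, 7.23 and 8.49 CPM in TRDKO control and 8.72, 7.76 and 7.17 CPM in TRDKO T3, both above WT without overlap (1.74 ± 0.12 and 1.39 ± 0.11, edgeR adjusted p = 1.09e-22 and 2.50e-19). The 1 gene lower was ggps1 (-0.52 ± 0.07, adjusted p = 5.11e-10), as in intestine. Next after sqle came ebp (0.94 ± 0.13), cyp51a1 (0.84 ± 0.06) and mvd (0.84 ± 0.07), while pmvk did not pass (0.08 ± 0.06). The call of mvk was lost without TRDKO control replicate 1 (adjusted p = 0.0963), and that of hsd17b7 without TRDKO control replicate 1 (adjusted p = 0.0710). Under T3, 11 synthesis genes were higher in TRDKO tail and 1 lower (34.1% and 31.4% of all genes). Over all members, with npc1l1, abcg5, abcg8 and soat2 tested on few TRDKO counts, 19 were higher and 4 lower (65.5% of all genes called). The lower one was ggps1 (-0.21 ± 0.06, adjusted p = 0.00364), a call lost without WT T3 replicate 3 (adjusted p = 0.0584), and the excess of fdps (0.13 ± 0.04) was lost without WT T3 replicate 2 (adjusted p = 0.0533). Skeletal muscle markers summed to 31175 to 32296 CPM in tail WT control and 24637 to 26407 CPM in TRDKO control. Epidermis markers summed to 1339.6 to 1342 and 1815 to 1854 CPM in the same groups. Enterocyte markers summed to 13.9 to 15.4 and 126 to 129.7 CPM, and exocrine pancreas markers to 1.71 to 2.06 and 83.8 to 88.9 CPM. The enterocyte sum of tail TRDKO control was 0.638% of that of intestine TRDKO control. The part of these marker shifts in the difference of synthesis genes was not tested.

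**Figure D5:**
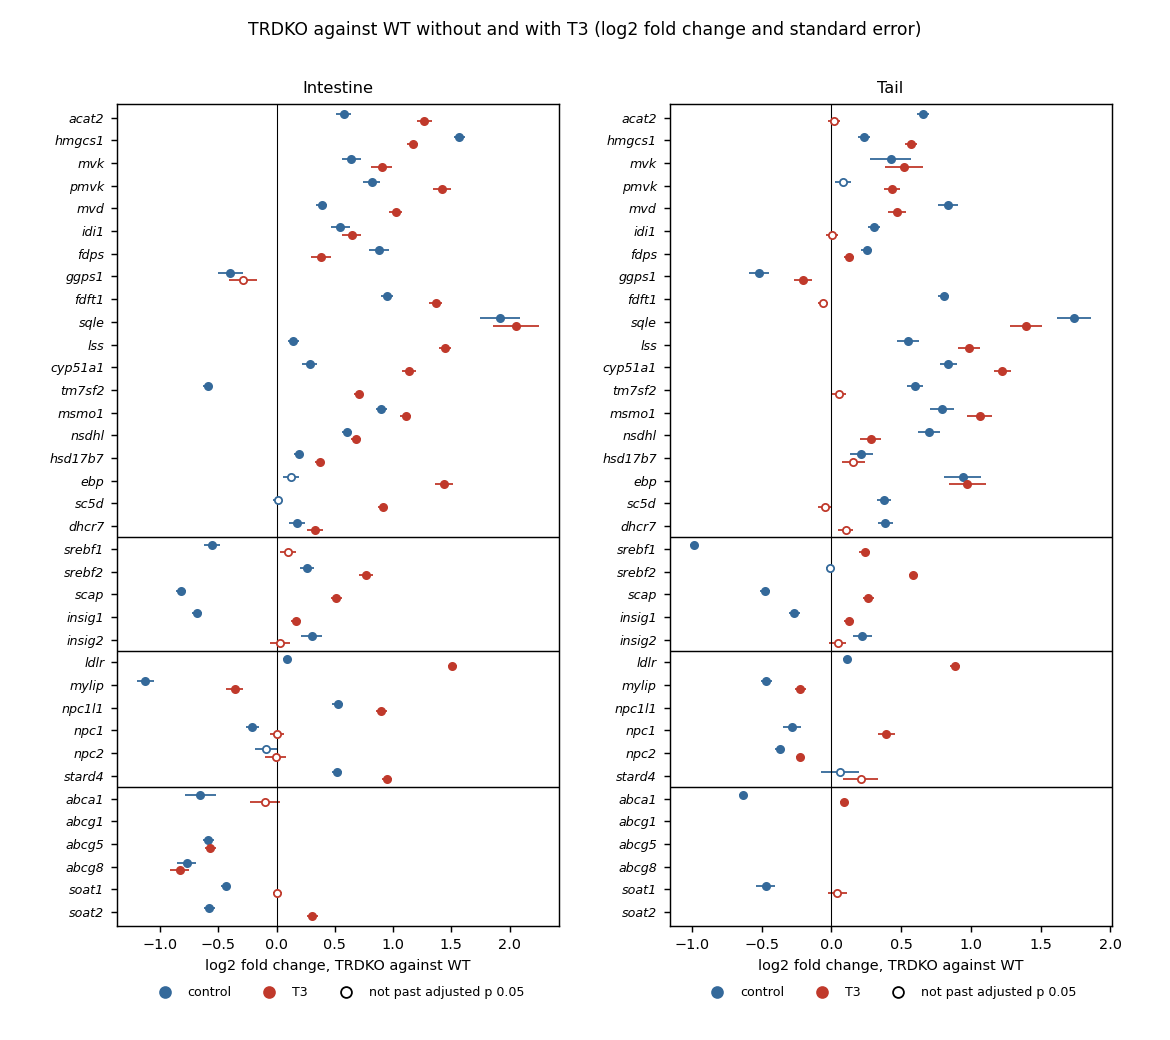
Fitted difference between TRDKO and WT (log2 fold change, bars 1 standard error) for each member without T3 (blue) and with T3 (red), in intestine and tail, with open points for differences that did not pass. Most synthesis points lie right of 0 in both organs, with sqle furthest, and abcg1 in both organs and npc1l1, abcg5, abcg8 and soat2 in tail are not drawn for their low counts.

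In WT tail the sensing genes srebf1, srebf2 and scap fell with T3 as in WT intestine, while insig1 fell where it had risen in intestine. 4 of the 5 fell and 1 rose in WT (33.5% and 35.4% of all genes), and 3 fell and 1 rose in TRDKO (26.2% and 26.7%). The largest fall was that of srebf1, which read 114, 111 and 116 CPM (WT control), 44.5, 43.998 and 42.2 (WT T3), 59.2, 56.4 and 55.1 (TRDKO control) and 51.2, 50.8 and 51.04 (TRDKO T3). WT control lay highest and WT T3 lowest, with no overlap among the 4 groups. It fell by 1.37 ± 0.03 in WT (edgeR adjusted p = 2.48e-53) and fell by 0.15 ± 0.03 in TRDKO, with an interaction of 1.22 ± 0.05 (adjusted p = 8.90e-39), and in control srebf1 was lower in TRDKO (-0.99 ± 0.03). The gene srebf2 read 103, 103 and 105 CPM (WT control), 60.9, 59.04 and 59.2 (WT T3), 104, 98.3 and 105 (TRDKO control) and 89.6, 88.5 and 89.4 (TRDKO T3). The control groups overlapped and both fell with T3, by 0.79 ± 0.03 in WT and by 0.19 ± 0.03 in TRDKO (adjusted p = 1.67e-37 and 1.33e-09), and under T3 it had the largest excess of the sensing genes in TRDKO (0.59 ± 0.03). The scap gene fell in WT (-0.82 ± 0.04) and slightly in TRDKO (-0.08 ± 0.03, adjusted p = 0.0462), the latter call being lost without TRDKO control replicates 1 or 2 or TRDKO T3 replicates 2 or 3, 1 at a time (adjusted p = 0.0529 to 0.183). The insig1 values were 53.8, 50.3 and 51.7 CPM (WT control), 43.2, 43.9 and 45.7 (WT T3), 41.8, 44.3 and 42.5 (TRDKO control) and 48.7, 47.5 and 47.9 (TRDKO T3). WT control was highest, and WT T3 and TRDKO control overlapped. It fell in WT (-0.22 ± 0.04, adjusted p = 1.47e-06) and rose in TRDKO (0.17 ± 0.04, adjusted p = 2.18e-05). The T3 effect on insig1 was lower in tail than in intestine in WT (-0.95 ± 0.06) and in TRDKO (-1.36 ± 0.05). The gene insig2 rose in WT (0.16 ± 0.07, adjusted p = 0.0312), a call lost without WT control replicate 2 or WT T3 replicate 1, 1 at a time (adjusted p = 0.195 to 0.450). It was higher in TRDKO control by 0.22 ± 0.07, a call lost without WT control replicate 2 (adjusted p = 0.122).

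Of the uptake genes of tail, ldlr again carried the largest fall with T3 in WT. There 3 of the 6 fell and 0 rose (33.5% and 35.4% of all genes), and in TRDKO 3 rose and 3 fell (26.7% and 26.2%), npc1l1 with few counts among the latter. It read 81.9, 79.6 and 75.9 CPM (WT control), 38.96, 36.8 and 37.6 (WT T3), 87.1, 82.2 and 85.97 (TRDKO control) and 69.8, 68.8 and 69.4 (TRDKO T3). WT T3 lay below every other group and TRDKO T3 lay between, without overlap. It fell by 1.06 ± 0.04 in WT and by 0.29 ± 0.03 in TRDKO (edgeR adjusted p = 2.14e-42 and 7.46e-15), with an interaction of 0.77 ± 0.05 (adjusted p = 3.59e-26). The fall in WT was smaller in tail than in intestine (difference 1.01 ± 0.06, adjusted p = 3.00e-14). The mylip gene read 65.4, 60.8 and 63.1 CPM (WT control), 48.9, 47.4 and 49.6 (WT T3), 45.3, 45.8 and 44.7 (TRDKO control) and 39.4, 42.6 and 42.3 (TRDKO T3). The groups followed each other downward without overlap. It fell with T3 in WT (-0.36 ± 0.04, adjusted p = 5.45e-14) and less in TRDKO (-0.12 ± 0.04), a call lost without TRDKO T3 replicate 1 (adjusted p = 0.0887), and it had the largest deficit of the uptake genes in TRDKO control (-0.47 ± 0.04). The npc1 gene went opposite ways, falling in WT (-0.20 ± 0.07) and rising in TRDKO from 13.2, 13.01 and 13.9 to 18.7, 19.8 and 16.9 CPM (0.48 ± 0.06, adjusted p = 2.54e-11), while npc2 was lower in TRDKO without (-0.37 ± 0.03) and with T3 (-0.22 ± 0.03). The stard4 gene was low in every group, at 2.76, 3.42 and 2.97 CPM (WT control), 3.62, 3.17 and 3.31 (WT T3), 3.29, 3.07 and 3.17 (TRDKO control) and 3.85, 4.002 and 3.73 (TRDKO T3). TRDKO T3 lay above the other groups, which overlapped. It did not pass in WT (0.14 ± 0.14), and its rise in TRDKO (0.29 ± 0.12, adjusted p = 0.0331) was lost without TRDKO control replicates 2 or 3 or TRDKO T3 replicates 1 or 2, 1 at a time (adjusted p = 0.0616 to 0.0963). Of the 3 uptake rises in TRDKO tail, 1 was kept under every setting other than leaving out a library, as were the 3 falls. In WT tail 2 of the 3 uptake falls were kept under those settings.

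The luminal transporters were counted in tail mostly in TRDKO control. For npc1l1 the values were 0, 0 and 0 CPM (WT control), 0, 0.0495 and 0.0479 (WT T3), 0.548, 0.943 and 1.02 (TRDKO control) and 0.0341, 0 and 0 (TRDKO T3), which is 0, 2, 64 and 1 counts in all. For abcg5 all WT libraries were at 0, TRDKO control read 0.731, 0.786 and 0.731 CPM and TRDKO T3 0.204, 0.0684 and 0 CPM, or 0, 0, 58 and 8 counts by group in the same order. For abcg8 the counts were 2, 3, 30 and 3. Against WT control, npc1l1 was at least 13.5-fold higher and abcg5 at least 12.2-fold higher in TRDKO control (exact 95% lower limits). With the 0 counts of WT control set to a floor of 3 counts, the folds were 17.03 and 15.4. On the same comparison abcg8 was 11.98-fold higher with an exact 95% interval of 3.04 to 103, which like the floors and limits covers counting error only. Within TRDKO tail, the control level of npc1l1 was 70.8-fold the level under T3 (interval 12.3 to 2839), and that of abcg8 was 11.06-fold (interval 3.44 to 56.6). The enterocyte markers moved the same way. They summed to 126 to 129.7 CPM in tail TRDKO control, with 11 of 11 genes detected, against 13.9 to 15.4 CPM in WT control, 21.7 to 23.5 in WT T3 and 34.4 to 35.6 in TRDKO T3. Exocrine pancreas markers were also highest there, at 83.8 to 88.9 CPM against 1.71 to 2.06 in WT control, 2.01 to 2.18 in WT T3 and 8.59 to 9.23 in TRDKO T3. Hepatocyte markers summed to 167 to 171 CPM in tail TRDKO control, 83.9 to 87.1 in WT control, 70.7 to 74.9 in WT T3 and 105 to 108 in TRDKO T3. Of the 19 genes, 11 were detected in each WT tail group and all 19 in each TRDKO tail group. The gene alb was at 0 in every WT tail library and at 23.2 to 25.8 CPM in TRDKO control. The gene tf stood at 32.3 to 35.5 CPM in tail WT control and 42.7 to 44.6 CPM in TRDKO control. As a percentage of the intestine of the same genotype and treatment, tail TRDKO control held 0.638% of the enterocyte sum, 0.418% of npc1l1, 0.342% of abcg5 and 0.361% of abcg8, and the part of such cells or RNA in these counts was not tested.

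Of the export genes, abca1 and soat2 fell with T3 in WT tail and rose in WT intestine, while soat1 fell in both. Tested as an interaction in WT, the T3 effect differed between organs for 2 of the 5 tested (39.5% of all genes called). The abca1 values were 168, 168 and 173 CPM (WT control), 116, 111 and 115 (WT T3), 112, 104 and 109 (TRDKO control) and 119, 122 and 120.5 (TRDKO T3). WT control lay above the other groups, which were close to each other. T3 lowered abca1 in WT tail (-0.56 ± 0.03, edgeR adjusted p = 9.94e-33) and raised it in TRDKO tail (0.16 ± 0.03, adjusted p = 5.52e-08), the latter not called with all 24 libraries in one fit (adjusted p = 0.291). The interaction was 0.72 ± 0.04 (adjusted p = 5.84e-31). The T3 effect on abca1 was lower in tail than in intestine, by a difference of -1.24 ± 0.16 in WT (adjusted p = 4.21e-06) and -1.02 ± 0.15 in TRDKO (adjusted p = 3.66e-05). The soat2 values were 11.97, 11.6 and 12.3 CPM (WT control), 8.98, 9.55 and 9.53 (WT T3), 0.475, 0.511 and 0.406 (TRDKO control) and 0.0341, 0.103 and 0.0370 (TRDKO T3). Both WT groups lay above both TRDKO groups, which together held 41 counts. The TRDKO difference of soat2 was -4.66 ± 0.15 without and -7.20 ± 0.23 with T3 (adjusted p = 2.14e-45 and 3.62e-45), where in intestine the same differences were -0.58 ± 0.05 and 0.31 ± 0.05. T3 lowered it in WT (-0.35 ± 0.08, adjusted p = 1.11e-04) and in TRDKO, where 36 counts in control and 5 under T3 were left (-2.89 ± 0.52). Every tail difference of soat2 that uses a TRDKO group rests on those few counts, and its standard error understates the counting error. Tail TRDKO control held 0.237% of the soat2 level of intestine TRDKO control, beside 0.638% of the enterocyte sum. In WT control these shares were 4.19% and 0.0615%. The enterocyte sum also fell with T3 in TRDKO tail, from 126 to 129.7 CPM to 34.4 to 35.6 CPM. The part of enterocyte RNA in the soat2 counts of TRDKO tail was not tested. The gene soat1 fell with T3 in WT tail (-0.44 ± 0.07), did not pass in TRDKO (0.07 ± 0.07) and was lower in TRDKO control (-0.47 ± 0.07).

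Genes around the core pathway were counted from 6 further lists, for T3 in each genotype and organ. Among all genes 30.3% rose and 30.3% fell in WT intestine, 20.6% and 20.3% in TRDKO intestine, 35.4% and 33.5% in WT tail and 26.7% and 26.2% in TRDKO tail, shares against which the counts of a list are to be read. Of 13 tested genes of SREBP processing and sterol-regulated degradation, 2 rose and 5 fell with T3 in WT intestine and 6 rose and 4 fell in TRDKO intestine, and in tail 8 rose and 5 fell in WT and 7 rose and 2 fell in TRDKO. In WT intestine the extremes were ufd1 (0.44 ± 0.05) and faf2 (-0.64 ± 0.07), factors of the degradation of membrane proteins. Of 12 lipoprotein receptor and adaptor genes, 4 rose and 7 fell in WT intestine, 5 rose and 3 fell in TRDKO intestine, 3 rose and 7 fell in WT tail and 5 rose and 2 fell in TRDKO tail. The largest falls in WT were those of lrp8, an apolipoprotein E and reelin receptor, at -3.67 ± 0.12 in intestine (37.6 to 3.04 CPM in group means) and -4.05 ± 0.05 in tail (121.7 to 7.26 CPM). In TRDKO control lrp8 was at 6.44 CPM in intestine and 10.3 CPM in tail, differing from WT control by -2.59 ± 0.10 and -3.55 ± 0.05.

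Of the lipoprotein assembly and carrier genes tested, 2 rose and 2 fell of 11 in WT intestine and 5 rose and 3 fell in TRDKO intestine, and of 10 in tail 4 rose and 2 fell in WT and 1 rose and 6 fell in TRDKO. The apolipoprotein gene apoa4, made by enterocytes, rose most in TRDKO intestine (1.23 ± 0.08, 714.9 to 1662 CPM). Of 13 genes of lysosomal release and sterol transfer, 3 rose and 4 fell in WT intestine, 5 rose and 1 fell in TRDKO intestine, 4 rose and 6 fell in WT tail and 4 rose and 2 fell in TRDKO tail, with the membrane sterol transfer gene gramd1b lowest in WT tail (-1.82 ± 0.09). Of 11 oxysterol and bile acid genes tested in intestine, 7 rose and 3 fell in WT and 8 rose and 1 fell in TRDKO, and of 8 in tail 2 rose and 3 fell in WT and 1 rose and 4 fell in TRDKO. The extremes in WT intestine were the bile acid transporter gene slc10a2 (2.49 ± 0.05, 24.1 to 139.9 CPM) and the cholesterol hydroxylase gene ch25h (-3.05 ± 0.07, 66.1 to 8.24 CPM), and ch25h also had the largest fall in WT tail (-3.10 ± 0.12). In TRDKO intestine the largest rise was that of cyp7a1, the rate-limiting enzyme of bile acid synthesis in liver (3.07 ± 0.05, 59.0 to 494 CPM), beside the hepatocyte marker sums, mostly tf, given above for those groups. Of 14 genes of the isoprenoid branch, 5 rose and 4 fell in WT intestine, 4 rose and 1 fell in TRDKO intestine, 8 rose and 3 fell in WT tail and 7 rose and 1 fell in TRDKO tail. The dolichol synthesis gene nus1 rose most in WT intestine (0.68 ± 0.06) and the farnesyltransferase subunit gene fntb fell most (-1.17 ± 0.14).

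Other marker lists also differed between groups, beside the sterol genes, and their part in the results was not tested. In intestine, smooth muscle markers summed to 6606 to 6895 CPM in WT control, against 8800.3 to 9300.2 with T3, and in TRDKO to 7549 to 7966 and 5294 to 5706 CPM. Enterocyte markers in TRDKO intestine summed to 19222 to 20546 CPM in control and 26512 to 30232 CPM with T3. Macrophage and granulocyte markers summed to 132 to 139 CPM in intestine WT control and 205 to 214 CPM in intestine TRDKO T3. Erythrocyte markers lay between 55.8 to 56.97 CPM in intestine WT T3 and 156 to 162 CPM in tail TRDKO control. In tail, notochord and cartilage markers summed to 3575 to 3630.1 CPM in WT control and 2384 to 2463 CPM in TRDKO T3. Nerve and glia markers summed to 855 to 879.7 CPM in tail WT T3 and 958 to 973 CPM in tail TRDKO control, and to 165 to 175 and 118 to 120.5 CPM in intestine WT control and WT T3, while tail WT control and TRDKO T3 overlapped.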

How the data were processed

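Total RNA from 24 samples was sequenced as stranded total RNA libraries, per the labels' protocols. The values deposited by the authors are raw counts of fragments per gene name, made with featureCounts on reverse-stranded, paired alignments to the XENTR_10.0 annotation with duplicates dropped, per the file headers. The submitters' processing notes name cutadapt 3.2, STAR 2.7.7a and Subread 2.0.1. Counts were tested in R 4.3.3 with edgeR 4.0.16 (trimmed-mean scaling, filterByExpr, robust quasi-likelihood test), within intestine (15491 genes), within tail (17018 genes) or, for organ comparisons, over both (17887 genes), with Benjamini-Hochberg adjustment over all genes tested. The lowest depth was 17577407 and the highest 24699154 fragments. Tail WT control replicates 1 and 3 were summed, since their counts, compared by chi-square in genes of at least 20 counts, did not differ beyond sampling noise (p = 0.126). Levels per kilobase use the exon length in the deposited table. Exact 95% intervals and floors of 3 counts cover counting error only.

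The members, the pathway lists and the marker lists were chosen with earlier results of these data known. The rule for named genes gave every member at least once, full values for the key steps hmgcs1, sqle, ldlr, insig1, srebf2, srebf1, stard4, npc1l1, abca1, abcg5, mylip and soat2 and for the largest called rise and fall of each role and comparison, and for the pathway lists counts with at most the largest rise and fall at a mean of 1 CPM or more. The pathway lists are counted here for the T3 comparisons. Marker lists covered enterocyte, hepatocyte, exocrine pancreas, smooth muscle, skeletal muscle, epidermis, notochord and cartilage, macrophage and granulocyte, erythrocyte, nerve and glia, and heat shock genes. On simulated counts for T3 in WT intestine, over 15233 genes, the test recovered 97% of genes changed 1.5-fold, 98.5% at 2-fold and 100% at 4-fold. The changed genes were few and drawn from well-counted genes, all genes had the same spread, and no library stood apart. The rates therefore do not cover genes of low count, the other comparisons or a group with a deviating library. Alternatives were RLE and upper-quartile scaling, no filter or a stricter filter, DESeq2 1.42.0, limma-voom (limma 3.58.1), a replicate block, no summing of libraries, all 24 libraries in one fit, and leaving out each library. Comparisons that share a group are not independent. Some sterol synthesis genes are not reported here.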

Additional observations from a re-analysis of the deposited data

Results flagged for a closer look

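The T3 effect differed between genotypes, by the edgeR interaction test, for 25 of the 35 tested members in intestine and 27 in tail, where 52.3% and 65.6% of all genes were called. It differed between organs for 21 members in WT and 29 in TRDKO, where 39.5% and 31.6% of all genes were called. The tested members include npc1l1, abcg5, abcg8 and soat2, which had few counts in TRDKO tail. The members below are those whose T3 effects passed in opposite directions in WT and TRDKO, where the value is the TRDKO effect minus the WT effect on the log2 scale. In intestine these were 4 genes that fell in WT and rose in TRDKO, namely tm7sf2 (1.29), scap (1.33), mylip (0.77) and npc1l1 (0.37). The npc1l1 fall in WT and the mylip rise in TRDKO were not called in several fits that left out 1 library. In tail the genes that rose in WT and fell in TRDKO were acat2 (-0.63), idi1 (-0.30), fdft1 (-0.86) and sc5d (-0.42). Those that fell in WT tail and rose in TRDKO tail were hmgcs1 (0.34), cyp51a1 (0.39), insig1 (0.39), npc1 (0.68) and abca1 (0.72). The rise of hmgcs1 in TRDKO tail was lost in fits without any of 3 libraries and that of cyp51a1 in the fit without TRDKO T3 replicate 2, and that of abca1 was not called with all 24 libraries in one fit.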

How the results depend on the processing

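Every count of called members stayed within 1.5 times its main value under each alternative. Leaving out 1 library gave 27 to 32 called members for T3 in TRDKO intestine (30 with all) and 5296 to 9004 called genes (6343 with all), the highest without TRDKO T3 replicate 3. Without that replicate, 2 differences that had not passed turned sign, abca1 between genotypes under T3 (0.0909, against -0.23 to -0.10 in the other fits that left out a library or none) and the abcg8 interaction (0.0776, against -0.12 to -0.05). Of the other results per setting, upper-quartile scaling changed the call of 26, one fit of all 24 libraries, made for fewer results, that of 25 and DESeq2 that of 22, and the causes were not tested. With upper-quartile scaling the median over all genes of tail against intestine moved from 0.08 to 0.18 in WT control and from 0.02 to 0.16 in TRDKO control, and 39.8% of called genes rose with T3 in TRDKO tail, against 50.5%. With RLE scaling, DESeq2 or no filter, 10 members were positive and 12 negative in the organ by T3 interaction of TRDKO. Same-numbered replicates of different groups did not deviate together within an organ (correlations -0.03 to 0.02 in intestine and -0.02 to 0.03 in tail). Whether the intestine and tail libraries of a number are paired was not tested. A replicate block kept the call of 482 of 485 results, lost dhcr7 (adjusted p = 0.0616) and ldlr (0.0740) between genotypes in control intestine and gained the insig2 interaction in intestine (0.0322). Depth limits npc1l1, abcg5, abcg8 and abcg1 in tail and soat2 in TRDKO tail, where most libraries held few or no counts.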
